A study of Mus musculus with 8 samples.

Results

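Genes of sarcolemmal excitability were described in mouse tibialis anterior muscle after forced expression of Gadd45a. The set comprises the sodium channel genes Scn4a and Scn4b, the chloride channel gene Clcn1, the calcium channel subunit genes Cacna1s, Cacnb1 and Cacng1, and the nitric oxide synthase gene Nos1. Members were taken by gene symbol from the array's annotation, using probe sets with 1 symbol, and 6 of the 7 were measured, among 14860 genes in all; Scn4a was matched by neither symbol nor gene identifier and was not analysed here. Each measured member had 1 probe set, and all 6 entered the fit without a filter on low values. In 4 arrays the muscle was a right tibialis anterior transfected with pCMV-FLAG-Gadd45a, a plasmid named for a CMV promoter and a FLAG-tagged Gadd45a. In the other 4 arrays it was a left tibialis anterior transfected with the empty plasmid pcDNA3. All muscles came from 8-week-old male mice described as a muscle-specific ATF4 knockout (ATF4 mKO) and were harvested on day 7, so the deletion is shared by both groups. Strain, the Cre line and the share of fibres that took up plasmid are not stated in the labels. Plasmid and side of the body cannot be told apart in this design, nor can Gadd45a and the expression of any tagged protein. Any difference between pCMV-FLAG-Gadd45a and pcDNA3 outside the Gadd45a sequence cannot be told apart from Gadd45a either. Whether each array stands for its own mouse is unstated in the labels, and the p-values therefore describe only the spread from array to array.

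An action potential of a muscle fibre is started by voltage-gated sodium channels, whose pore-forming subunit in adult muscle is encoded by Scn4a and whose beta subunits, among them the product of Scn4b, adjust gating. The chloride channel encoded by Clcn1 carries most of the resting conductance of the fibre membrane and steadies it, and its loss causes myotonia. In the transverse tubules the calcium channel made of the Cacna1s, Cacnb1 and Cacng1 products with an alpha-2/delta subunit senses the voltage and opens the calcium release channel of the sarcoplasmic reticulum. The synthase encoded by Nos1 is held at the sarcolemma of fast fibres by the dystrophin complex.

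Gadd45a itself read 10.35, 10.18, 10.46 and 10.34 log2 units in the Gadd45a plasmid arrays, against 7.85, 7.75, 7.66 and 7.80 in the control plasmid arrays. Atf4, which both groups are described as lacking in muscle fibres, averaged 7.49 ± 0.10 with Gadd45a plasmid and 6.95 ± 0.09 with control plasmid (SD, n = 4 each); whether its probe set covers deleted sequence is unknown here. Array medians lay between 5.85 and 5.92, and correlations between arrays were 0.979 to 0.989 within groups and 0.963 to 0.975 between them. Values are deposited log2 intensities, fold changes are log2 differences of Gadd45a plasmid minus control plasmid, and adjusted p-values come from limma with Benjamini-Hochberg adjustment over all 16755 probe sets, with a threshold of 0.05.

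Of the 6 measured members, Scn4b, Nos1, Clcn1 and Cacna1s were lower and Cacng1 was higher with Gadd45a plasmid, and Cacnb1 did not pass the test. Signals of the 4 lower genes were 38.1%, 49.7%, 61.4% and 72.3% of their control levels in that order, and that of Cacng1 was 143%. For Scn4b and Nos1 the Gadd45a plasmid means, 5.64 and 5.73, lay below the array medians of 5.85 to 5.92. No background level is given, so their percentages are uncertain. The median log2 fold change of the 6 was -0.59, and that of all probe sets -0.06. Over all probe sets 10.3% were called lower, 10.8% higher and 21.1% in either direction. The groups did not overlap in any of the 6 members, against 26.9% of all probe sets. With 4 arrays a group, precision is limited.

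For the 4 lower members, picked by their direction, the 250 bases before the annotated start sites are shown (RefSeq, assembly GRCm38.p6). Common control of these 4 genes was not tested. Capitals mark E-boxes, CANNTG, the motif bound by muscle regulatory factors such as myogenin.
Scn4b (GRCm38.p6 chr9:45138374-45138623, plus strand): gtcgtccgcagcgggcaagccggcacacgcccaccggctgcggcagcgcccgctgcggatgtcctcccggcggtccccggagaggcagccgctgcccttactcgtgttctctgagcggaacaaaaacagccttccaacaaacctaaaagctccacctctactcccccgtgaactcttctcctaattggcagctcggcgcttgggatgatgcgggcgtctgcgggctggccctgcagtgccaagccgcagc
Nos1 (GRCm38.p6 chr5:117866589-117866838, plus strand): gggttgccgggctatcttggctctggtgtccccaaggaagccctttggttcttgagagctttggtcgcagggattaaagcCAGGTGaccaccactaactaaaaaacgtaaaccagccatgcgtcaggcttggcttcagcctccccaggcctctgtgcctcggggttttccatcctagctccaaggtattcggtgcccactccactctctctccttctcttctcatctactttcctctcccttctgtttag
Clcn1 (GRCm38.p6 chr6:42286435-42286684, plus strand): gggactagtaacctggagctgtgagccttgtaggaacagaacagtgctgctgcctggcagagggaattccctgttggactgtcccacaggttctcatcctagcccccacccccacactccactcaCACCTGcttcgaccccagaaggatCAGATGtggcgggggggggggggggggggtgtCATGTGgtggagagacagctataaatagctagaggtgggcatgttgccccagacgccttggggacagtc
Cacna1s (GRCm38.p6 chr1:136052561-136052810, plus strand): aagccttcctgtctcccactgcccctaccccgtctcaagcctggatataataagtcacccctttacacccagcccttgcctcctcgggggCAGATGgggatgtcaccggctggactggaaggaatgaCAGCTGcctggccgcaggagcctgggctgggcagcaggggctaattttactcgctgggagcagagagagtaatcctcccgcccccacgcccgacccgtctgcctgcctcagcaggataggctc

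The letters differed between these windows. No E-box stood in the Scn4b window, 1 stood in that of Nos1, 3 in that of Clcn1 and 2 in that of Cacna1s. In Nos1 it began 170 bases before the start and had the form CACCTG on the opposite strand. In Clcn1 the E-boxes began 125, 101 and 69 bases before the start, the first with the form CACCTG, and a MEF2 motif began at 51 bases. In Cacna1s they began at 160 and 123 bases, the second with the form CAGCTG next to an MCAT motif, CATTCC on the opposite strand, at 130 bases. Of 32851 promoter windows of the same length, 66.2% hold an E-box on either strand, 1.69% a MEF2 motif, 1.47% a CArG box and 12.6% the MCAT motif. The E-box form CAGCTG was in 13% of them. The other form, that of Nos1 and Clcn1, was in 17.2%, and both forms also count as E-boxes. Cacnb1 has 2 annotated starts, with no E-box before the first and 1 before the second, 27 bases away. No CArG box was in any of the 6 windows, which cover the measured members other than Cacng1. Cacng1 had no window in the promoter reference and was not searched. These matches describe letters and not binding, and whether muscle uses these annotated starts, that of Nos1 included, was not tested.

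Scn4b encodes a single-pass beta subunit that associates with the sodium channel pore. It read 5.34, 5.32, 6.19 and 5.71 in the Gadd45a plasmid arrays, against 6.87, 7.08, 7.03 and 7.13 in the control plasmid arrays. The Gadd45a plasmid arrays were all lower, by at least 0.68 between the nearest arrays, and they differed more among themselves than the controls did. Means were 5.64 ± 0.41 with Gadd45a plasmid and 7.03 ± 0.11 with control plasmid (SD, n = 4 each). The log2 fold change was -1.39 (SE 0.18, 95% interval -1.79 to -0.99, adjusted p = 0.000709 with limma). Only 10 of the 16755 probe sets had a more negative fold change. Gadd45a plasmid 3, which had the highest Scn4b signal of its group, also had the highest Gadd45a signal of the 4. Without that array the fold change of Scn4b was -1.57 (limma adjusted p = 0.000174).

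The Clcn1 signal was even within both groups. Its log2 intensities were 7.15, 7.00, 7.12 and 7.05 with Gadd45a plasmid, against 7.71, 7.84, 7.81 and 7.77 with control plasmid. Every Gadd45a plasmid array was below every control array, with a gap of 0.56. The means of 7.08 ± 0.07 with Gadd45a plasmid and 7.78 ± 0.06 with control plasmid (SD, n = 4 each) gave a log2 fold change of -0.70 (SE 0.07, 95% interval -0.85 to -0.55, limma adjusted p = 0.000156).

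Of the 3 calcium channel subunits Cacna1s fell, Cacng1 rose and Cacnb1 did not pass the test. Cacna1s, the pore-forming and voltage-sensing subunit, read 8.62, 8.52, 8.62 and 8.57 with Gadd45a plasmid, against 8.94, 9.0, 9.05 and 9.21 with control plasmid. It fell in all 4 Gadd45a plasmid arrays, with means of 8.58 ± 0.05 and, in controls, 9.05 ± 0.12 (SD, n = 4 each). Its log2 fold change was -0.47 (SE 0.08, 95% interval -0.64 to -0.30, limma adjusted p = 0.00244). Cacng1, the gamma subunit, which dampens the calcium current in mouse muscle, read 8.17, 8.34, 8.30 and 8.44 with Gadd45a plasmid, against 7.58, 7.83, 7.87 and 7.92 with control plasmid. All Gadd45a plasmid arrays were higher, with a gap of 0.25 to the controls. The means were 8.31 ± 0.11 with Gadd45a plasmid and 7.80 ± 0.15 with control plasmid (SD, n = 4 each). The log2 fold change of Cacng1 was 0.51 (SE 0.09, 95% interval 0.30 to 0.72, limma adjusted p = 0.00483).

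Cacnb1 encodes the cytoplasmic beta subunit that carries the channel to the triads. It read 7.54, 7.50, 7.53 and 7.49 with Gadd45a plasmid, against 7.34, 7.46, 7.42 and 7.33 with control plasmid. The groups were separated by 0.02, less than the SD of either group (0.03 with Gadd45a plasmid and 0.06 with control plasmid, n = 4 each). The log2 fold change of 0.13 (SE 0.06, 95% interval -0.02 to 0.27) did not pass (limma adjusted p = 0.180).

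Nos1 read 5.78, 5.57, 5.82 and 5.76 with Gadd45a plasmid, against 6.75, 6.91, 6.63 and 6.67 with control plasmid. The 4 Gadd45a plasmid arrays lay at least 0.81 below the controls, the widest gap among the members. Means were 5.73 ± 0.11 with Gadd45a plasmid and 6.74 ± 0.12 with control plasmid (SD, n = 4 each), a log2 fold change of -1.01 (SE 0.09, 95% interval -1.20 to -0.81, limma adjusted p = 0.000114). In an exact two-sided permutation test of its array values each of the 6 members had p = 0.0286, the smallest that 70 labellings of 4 against 4 arrays allow, Cacnb1 included.

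**Figure D1:**
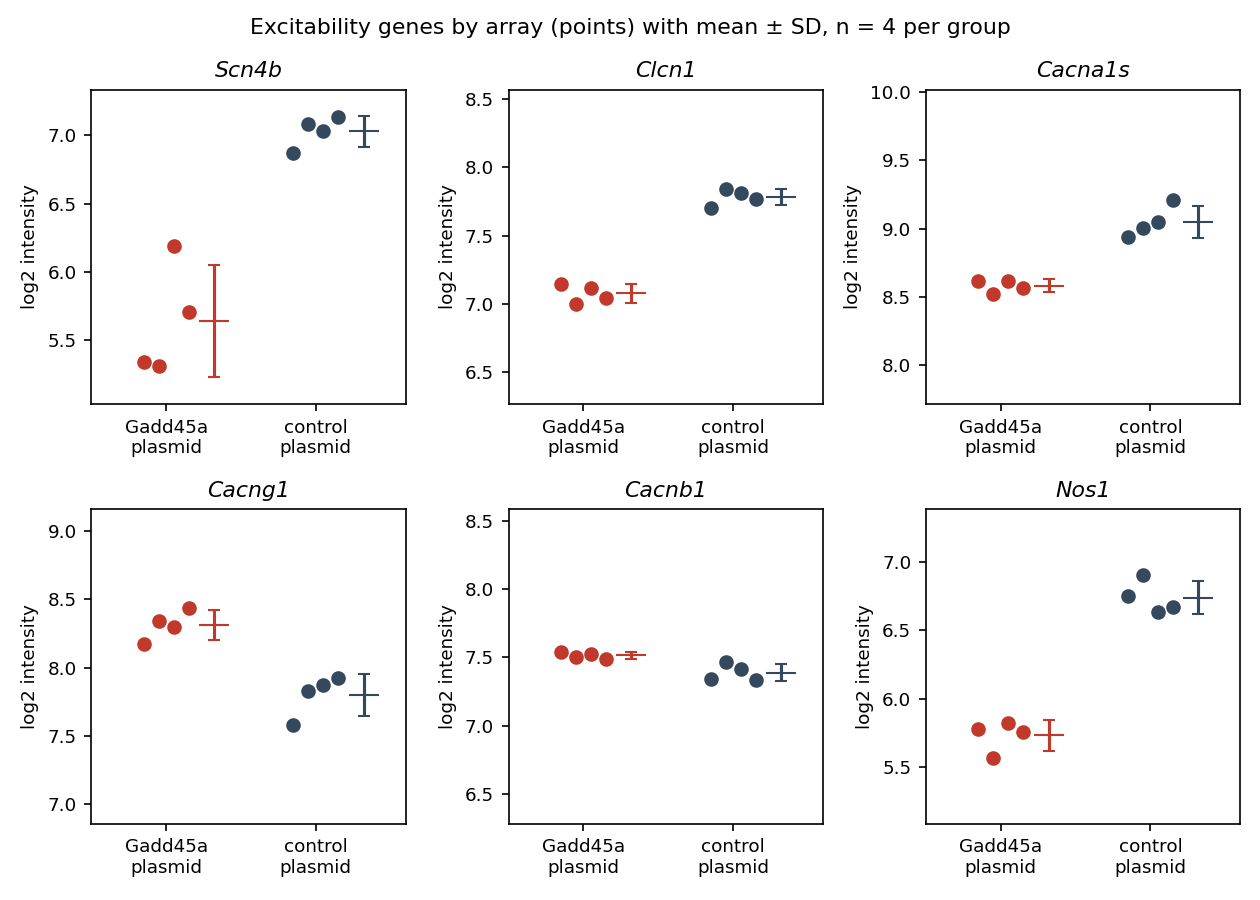
Log2 intensity of the 6 measured genes on each array (points), with the mean and SD of each group of 4 arrays beside them; all panels span the same number of log2 units. Scn4b, Clcn1, Cacna1s and Nos1 lie lower with Gadd45a plasmid, Cacng1 lies higher, and Cacnb1 differs by 0.13.

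**Figure D2:**
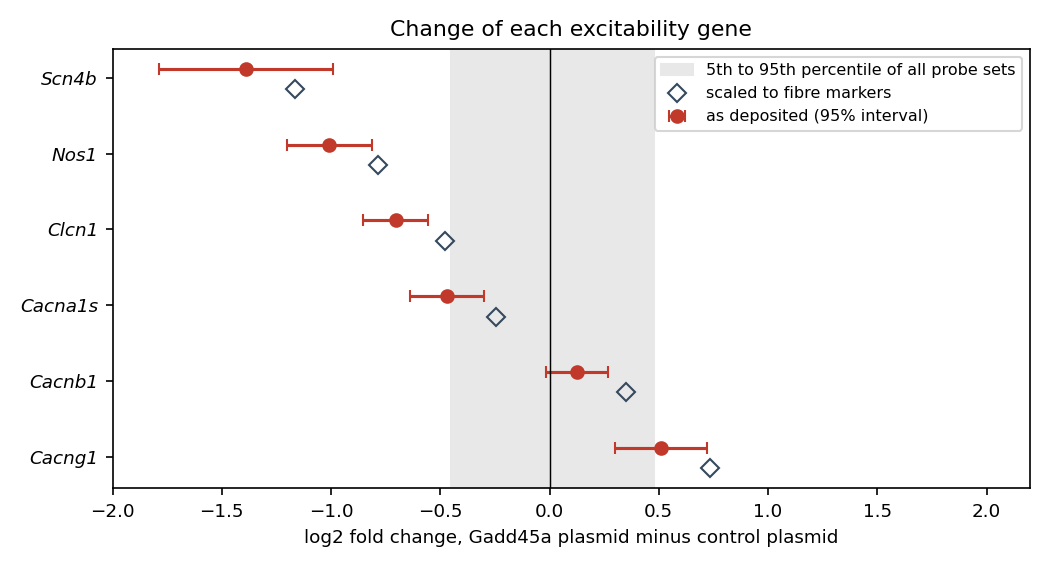
Log2 fold change of each gene with its 95% interval (circles) and after scaling each array to the mean of 19 fibre markers (diamonds); the grey band spans the 5th to 95th percentile of all probe sets as deposited, -0.45 to 0.48. Scn4b, Nos1, Clcn1, Cacna1s and Cacng1 lie outside the band as deposited, Cacna1s and Cacng1 only just.

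Whether 2 members changed unequally was tested with the difference of their log2 values within each array, in 4 pairs. For Cacng1 minus Cacna1s this difference was -0.45, -0.18, -0.32 and -0.13 with Gadd45a plasmid, against -1.36, -1.17, -1.17 and -1.29 with control plasmid. The shift between groups was 0.98 (SE 0.09), with no overlap. Cacnb1 minus Cacna1s shifted by 0.59 (SE 0.08), with the Gadd45a plasmid arrays between -1.09 and -1.02 and the controls between -1.88 and -1.54. Cacng1 minus Cacnb1 shifted by 0.39 (SE 0.10), and the groups were only 0.04 apart, at 0.63 to 0.95 with Gadd45a plasmid and 0.24 to 0.59 with control plasmid. Nos1 minus Clcn1 shifted by -0.30 (SE 0.07), at -1.43 to -1.29 with Gadd45a plasmid and -1.18 to -0.93 with control plasmid. In an exact two-sided permutation test each of the 4 pairs had p = 0.0286, the smallest possible for n = 4 against 4. Adjustment over the 4 pairs left these equal p-values at 0.0286. For Cacng1 minus Cacna1s and Cacnb1 minus Cacna1s this p was fixed beforehand, because both genes already separated the groups, in opposite directions. Those p-values add nothing to the values of the single members. Without any 1 of Gadd45a plasmid 2, 3 or 4 or control plasmid 1 or 2, the Cacng1 minus Cacnb1 shift was 0.33 to 0.39 with exact permutation p = 0.0571. For Nos1 minus Clcn1 the same p was reached without Gadd45a plasmid 1, 2 or 3, with shifts of -0.32 to -0.28. The 95% intervals of Scn4b and Nos1 overlap, and their difference was not tested.

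**Figure D3:**
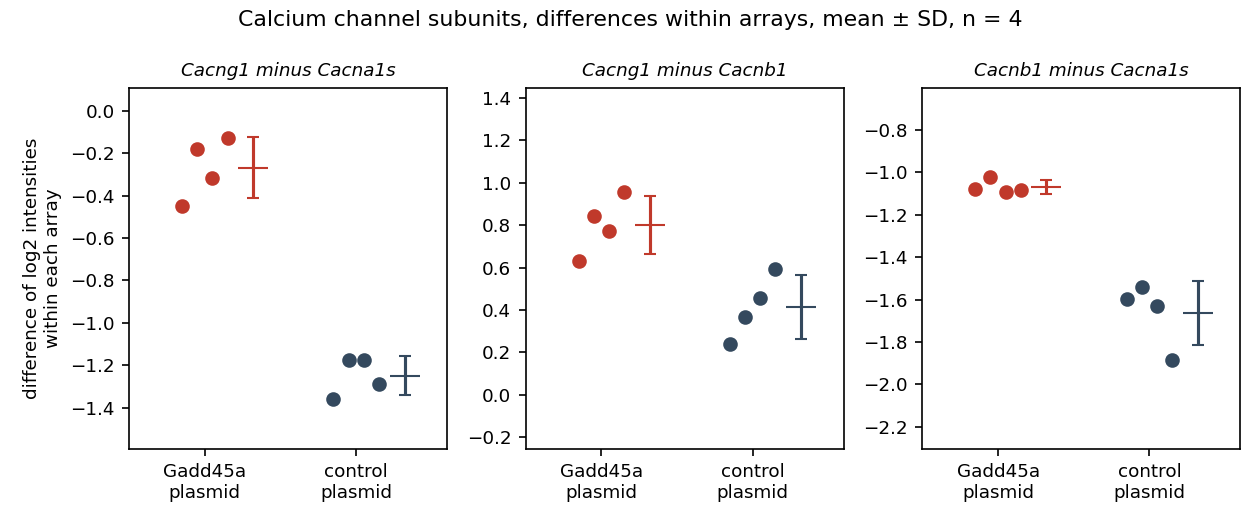
Difference between the log2 intensities of 2 calcium channel subunits within each array (points), with the mean and SD of each group of 4. A higher point is a higher signal of the first gene relative to the second, and the shift is widest, 0.98, for Cacng1 minus Cacna1s; only the shift between groups has a meaning, since probe sets differ in brightness.

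Markers of fibres and of other cells differed between the same groups. Of 19 measured markers of skeletal muscle fibres 8 were lower and 0 higher, with a median log2 fold change of -0.17. Their summed linear intensity was 49148 to 50766 with Gadd45a plasmid and 53238 to 58169 with control plasmid, and none was listed at 0, the lowest value of the whole table being 1.64 log2 units. Myoglobin (Mb, -0.78), the glycogen phosphorylase Pygm (-0.74), the creatine kinase Ckm (-0.51) and the calcium release channel Ryr1 (-0.49) were among those that fell, while Acta1 (-0.07, adjusted p = 0.437) and Casq1 (-0.08, adjusted p = 0.389) did not pass with limma. The changes of the 19 markers ran from -0.78 to 0.31. Myl1 (0.31, adjusted p = 0.144) and Actn2 (0.29, adjusted p = 0.0621) were on the higher side without passing with limma. In these bulk samples fewer fibres and less RNA per fibre cannot be told apart.

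After each array was scaled to the mean of the 19 fibre markers, a setting chosen after the values were seen, Scn4b was at -1.17 (SE 0.17), Nos1 at -0.78 (SE 0.10), Clcn1 at -0.48 (SE 0.07) and Cacna1s at -0.24 (SE 0.07, adjusted p = 0.0294), all still lower with limma. Cacng1 was at 0.74 (SE 0.08), and Cacnb1 was higher at 0.35 (SE 0.07, adjusted p = 0.00521). This scaling put the median of all probe sets at 0.16, against -0.06 as deposited. The mean of the 19 markers itself changed by -0.22, and 11 of them were not called. The 8 called markers ran from -0.78 (Mb) to -0.26 (Myot). Cacna1s, at -0.47 as deposited, was thus within the range of the called fibre markers, close to Ckm (-0.51) and Ryr1 (-0.49). A difference between Cacna1s and those markers was not tested.

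Of 21 macrophage and monocyte markers 16 were higher and 0 lower, with summed intensities of 13052 to 15604 with Gadd45a plasmid and 8488 to 9064 with control plasmid. Of 15 endothelial markers 10 were lower (1537 to 1596 with Gadd45a plasmid, 1921 to 2097 with control plasmid). Of 11 markers of smooth muscle and pericytes 5 were lower and 1 higher, with overlapping sums (3135 to 3392 with Gadd45a plasmid, 3297 to 3909 with control plasmid). Of 14 fibroblast markers 8 were higher and 2 lower (6385 to 6839 and, in controls, 5795 to 5974), and of 11 adipocyte markers 7 were lower (1920 to 2321 and, in controls, 2671 to 3052). Of 12 Schwann cell and nerve markers 1 was higher and 1 lower (630 to 714 and, in controls, 744 to 830), and of 13 satellite cell and myoblast markers 5 were higher (2254 to 2476 and, in controls, 1740 to 2157). Lymphocyte markers (2 of 12 higher, 1 lower; 997 to 1260 and, in controls, 1003 to 1086) and neutrophil markers (0 of 9 higher, 2 lower; 419 to 1581 and, in controls, 922 to 1688) had overlapping sums. The part of these cells in the values of the members was not tested. Over all probe sets 21.1% were called in either direction. The called share was 16.7% of Schwann cell and nerve markers, 22.2% of neutrophil markers and 25% of lymphocyte markers, near that share. In the other marker lists, fibre markers included, it was 38.5% to 76.2%.

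Related genes were described from 8 lists with 134 measured genes, of which 22 were higher and 27 lower. The median of the 134 was -0.10, beside -0.06 for all probe sets. Over all probe sets 10.8% were called higher, 10.3% lower and 21.1% in either direction. By list, the share called in either direction ran from 18.8% (other sodium channel genes) to 46.7% (nitric oxide and cyclic GMP genes). Fits that left out 1 array or a same-numbered pair, 12 in all, called 9 to 19 of the 134 higher and 13 to 24 lower. Among 16 other sodium channel genes 2 were higher and 1 lower (median -0.18). Scn3a, a pore-forming subunit known mainly from developing neurons, read 5.41, 5.07, 5.37 and 4.86 with Gadd45a plasmid, against 3.70, 3.60, 3.73 and 3.43 with control plasmid. The Scn3a signal was higher by 1.56 (SE 0.13, limma adjusted p = 9.57e-05), on a dim probe set that 85.9% of all probe sets exceed in brightness. No background level is given for the arrays, so the control signal of Scn3a may lie at background, and the size of its change is uncertain. Scn7a, an atypical sodium channel that senses sodium, read 7.08, 7.13, 7.04 and 7.24 with Gadd45a plasmid, against 6.21, 6.36, 6.44 and 6.14 with control plasmid, and rose by 0.84 (SE 0.09, limma adjusted p = 0.000237). Both stood above all controls. Fgf13, an intracellular partner of sodium channels, was at -0.30 with overlapping groups and limma adjusted p = 0.0460, and it missed the threshold in 10 of the 12 leave-out fits (adjusted p up to 0.152). After scaling to the fibre markers it was at -0.07 (adjusted p = 0.641).

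Among 32 other chloride channel genes 6 were higher and 4 lower (median -0.09), and the 12 leave-out fits called 2 to 4 higher. Clcn5, an endosomal chloride and proton exchanger of the Clcn1 family, read 7.24, 7.15, 7.31 and 6.95 with Gadd45a plasmid, against 6.11, 5.92, 6.17 and 5.70 with control plasmid. It rose by 1.19 (SE 0.12, limma adjusted p = 0.000214), opposite in direction to Clcn1. The intracellular channel proteins Clic5 (-0.74, SE 0.10) and Clic1 (0.51, SE 0.08) moved in opposite directions. The calcium-activated chloride channel Ano1 fell by 0.44 (SE 0.07), a call just missed after scaling to the fibre markers (-0.22, adjusted p = 0.0502). Its probe set is dim, with 69.9% of all probe sets brighter, and the size of its change is uncertain.

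Among 23 other voltage-gated calcium channel genes and their regulators 2 were higher and 6 lower (median -0.16), and the 12 leave-out fits called 1 to 3 higher and 2 to 6 lower. Cacna2d1, the alpha-2/delta subunit that completes the muscle channel, read 9.21, 9.23, 9.21 and 9.09 with Gadd45a plasmid, against 9.62, 9.65, 9.65 and 9.76 with control plasmid. It fell by 0.49 (SE 0.07, limma adjusted p = 0.00103), a change close in size to that of Cacna1s; the difference between them was not tested. Rrad, a small GTP-binding protein that inhibits calcium channels through the beta subunit, read 6.68, 6.47, 7.14 and 6.49 with Gadd45a plasmid, against 5.33, 5.43, 5.53 and 5.46 with control plasmid. It rose by 1.26 (SE 0.14, limma adjusted p = 0.000337), with all Gadd45a plasmid arrays above the controls. The beta subunit Cacnb2 was at -0.45 (SE 0.08), and at -0.23 after scaling to the fibre markers (adjusted p = 0.0890). Cacna1d, a pore-forming subunit of neurons and endocrine cells, was at 0.36 (SE 0.09, adjusted p = 0.0219) and missed the threshold in 7 of the 12 leave-out fits (limma adjusted p up to 0.0817). The Cacnb2 and Cacna1d probe sets are dim, with 68.3% and 74.7% of all probe sets brighter, and the sizes of their changes are uncertain.

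Around Nos1, 13 genes of the dystrophin complex gave 3 higher and 3 lower (median -0.02). Lama2, the laminin chain bound by dystroglycan, was at 0.37 (SE 0.07) and Utrn, the dystrophin relative utrophin, at 0.31 (SE 0.07), missing the threshold in 2 of the 12 (limma adjusted p up to 0.0651). The sarcoglycans Sgcd (-0.33, SE 0.09) and Sgca (-0.33, SE 0.08) missed the threshold in 9 and 6 of the 12 (limma adjusted p up to 0.143 and 0.119). After scaling to the fibre markers both were at -0.10 (adjusted p = 0.386 for Sgcd and 0.466 for Sgca). Among 15 genes of nitric oxide and cyclic GMP signalling 2 were higher and 5 lower (median -0.17), and the 12 fits called 2 to 4 lower. Prkg1, the cyclic GMP-dependent kinase, read 6.26, 6.07, 6.37 and 6.26 with Gadd45a plasmid, against 6.79, 7.05, 7.22 and 7.00 with control plasmid, and fell by 0.78 (SE 0.10, limma adjusted p = 0.000873). Gucy1a1, a subunit of the nitric oxide receptor guanylate cyclase, fell by 0.45 (SE 0.08), and was at -0.22 after scaling to the fibre markers (adjusted p = 0.0976). Nostrin, an adaptor known to bind the endothelial synthase, rose by 0.73 (SE 0.11) and Asl, the argininosuccinate lyase, by 0.37 (SE 0.06). The Nostrin probe set is dim, with 65.9% of all probe sets brighter, and the size of its change is uncertain. Prkg1 and Gucy1a1 are also abundant in smooth muscle, of whose 11 markers, listed with those of pericytes, 5 were lower and 1 higher, Myh11 at -0.81 and Acta2 at 0.82 among them; the part of smooth muscle in their values was not tested.

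Among 17 genes of transverse tubule and triad structure 4 were higher and 3 lower (median 0.05), and the 12 fits called 0 to 4 higher. As planned, this list also names Cacnb1, a member of the excitability set. The endocytic protein Ehd4 was at 0.57 (SE 0.13, missing the threshold in 2 of the 12, limma adjusted p up to 0.0842) and Asph at 0.42 (SE 0.08, lost in 1 of the 12, adjusted p = 0.0502). The titin cap Tcap fell by 0.54 (SE 0.08) and junctophilin Jph1, which holds the tubule to the reticulum, by 0.47 (SE 0.07). Of 9 genes that anchor channels in the membrane 1 was higher and 3 lower (median -0.14). The erythroid-type spectrin Sptb fell by 0.54 (SE 0.08, limma adjusted p = 0.00195). Add1 (0.27), Ank1 (-0.26) and Sptbn4 (-0.24) missed the threshold in 9, 7 and 11 of the 12 (limma adjusted p up to 0.0984, 0.129 and 0.154). After scaling to the fibre markers Ank1 was at -0.04 (adjusted p = 0.783), Sptbn4 at -0.01 (adjusted p = 0.939) and Add1 at 0.49 (adjusted p = 0.000742). The Sptbn4 probe set is also dim, with 59.3% of all probe sets brighter.

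Among 10 splicing regulators, of which the muscleblind and CELF proteins are known to control Clcn1 splicing, 2 were higher and 2 lower (median 0.11). Celf2 rose by 0.51 (SE 0.07, limma adjusted p = 0.000835) on its brighter probe set and was at 0.06 (adjusted p = 0.843) on the other. Rbfox1 was at -0.38 (SE 0.06), and at -0.15 after scaling to the fibre markers (adjusted p = 0.125). Rbfox2 was at 0.32 (SE 0.08, lost in 3 of the 12 fits, limma adjusted p up to 0.0859). Mbnl1 was at -0.22 as deposited (SE 0.06, adjusted p = 0.0267, lost in 11 of the 12 fits, limma adjusted p up to 0.116) and at 0.00 after scaling to the fibre markers. The arrays measure transcript signal per probe set and do not report splice forms.

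**Figure D4:**
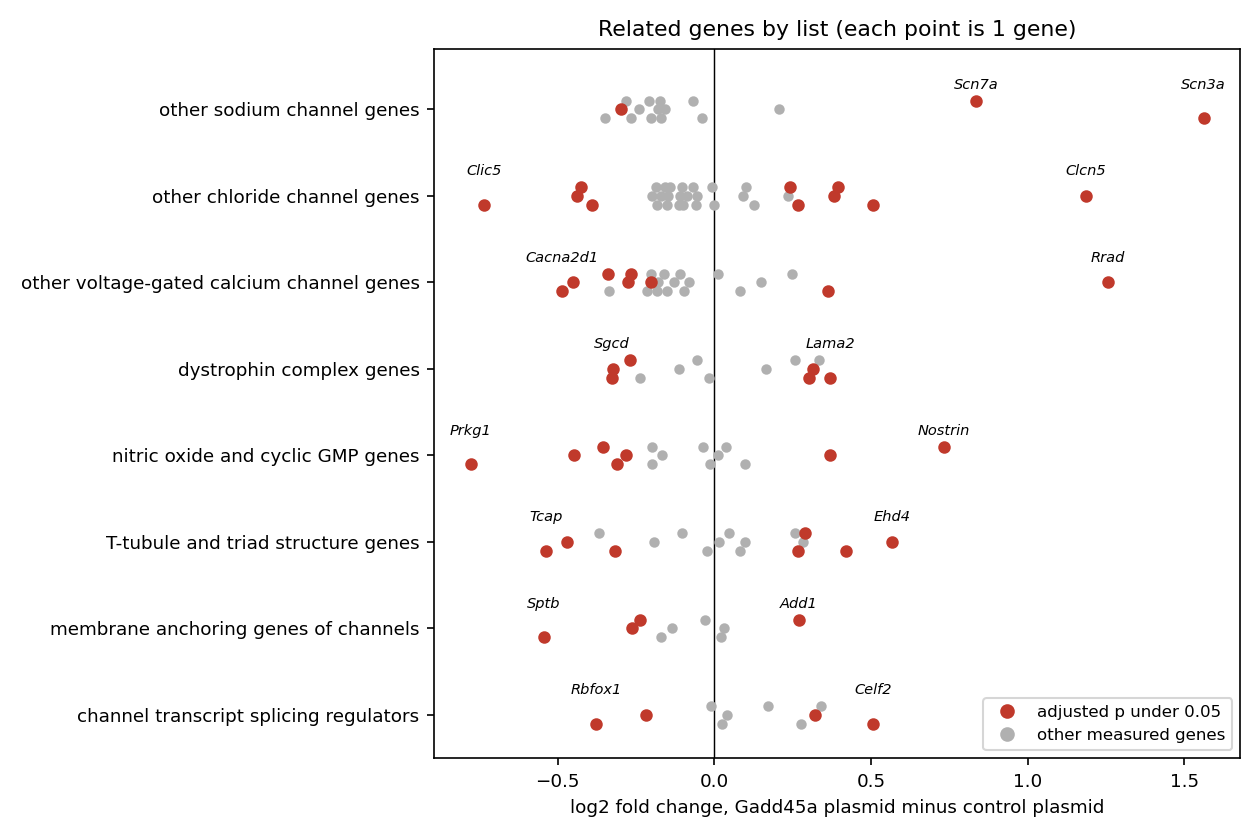
Log2 fold change of each measured gene in the 8 lists (points), with genes at an adjusted p under 0.05 in red and the 2 largest called changes of each list named. Scn3a, Clcn5 and Rrad lie farthest to the right, at 1.56, 1.19 and 1.26; the size for Scn3a, a dim probe set, is uncertain.

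The genes with the most similar profiles over the 8 arrays were found by the root mean square difference of log2 values after each gene's own mean was taken off. For Scn4b these were Asb11 (0.187) and BC023105 (0.202), for Nos1 Pfn2 (0.0642) and Adssl1 (0.0940), and for Clcn1 Pcgf5 (0.0463) and Golga4 (0.0471). For Cacna1s they were Adh1 (0.0355) and Ndrg2 (0.0433), for Cacng1 Chek1 (0.0436) and Ctns (0.0545), and for Cacnb1 Pcm1 (0.0218) and Taok1 (0.0257). The members' own profiles had root mean square sizes of 0.742 for Scn4b, 0.514 for Nos1, 0.356 for Clcn1, 0.247 for Cacna1s, 0.281 for Cacng1 and 0.0754 for Cacnb1. The difference between the groups makes up much of each profile, so the measure picks genes with a change of like size.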

How the data were processed

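For every array the deposited table holds a log2 intensity for each probe set (16755 probe sets, 8 arrays, 0 missing values), made by the authors with GCOS and RMA on the mouse build mm9, per the submitters' processing notes, without versions. RMA corrects background, normalizes between arrays and summarises probes, which can compress the changes of dim probe sets. The authors' selection of probe sets is not stated in the labels. RNA was extracted with TRIzol, amplified with NuGEN kits and labelled with biotin, per the labels' protocols.

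Groups came from titles and treatment labels. Genes were named from 14996 probe sets with 1 symbol; 1019 had several and 740 none. The values as deposited were fitted by moderated linear models (limma 3.58.1, R 4.3.3; two-sided, without a block), adjusted over all probe sets; SE and intervals are moderated. Pairs of members were tested within arrays by exact permutation; 2 planned pairs needed Scn4a and were not run. The code of the fit was checked on simulated data with independent noise and few changed probe sets. That setting is unlike these data, and the check does not bear on the calls made here. Lists are described by counts and medians, without a list test. Named genes are the members, up to 4 called genes with the largest change per list, and for each member the 2 nearest profiles. Members, lists, rules and alternatives were chosen with earlier results of these data known. Promoter windows are from RefSeq (GRCm38.p6), whose build differs from mm9. The alternatives tried were a block for sample number, quantile, median and cyclic loess normalization, a brightness filter, trend and robust variance, array weights, means of probe sets, a threshold of 0.01, leaving out arrays or same-numbered pairs and, added later, scaling to fibre markers.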

Additional observations from a re-analysis of the deposited data

Results flagged for a closer look

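Among 38 named genes in both groups, 2 had 1 array far from the other 3 of its group by Dixon's test, which flags about 1 group in 20 by chance. Nostrin read 5.57 in Gadd45a plasmid 3, against 5.77 to 5.78 in the other Gadd45a plasmid arrays. Rbfox1 read 8.68 in Gadd45a plasmid 2, against 8.72 to 8.73 in the others of that group. None of the 6 members of the excitability set, nor Gadd45a, had such an array.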

How the results depend on the processing

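The 4 lower members (Scn4b, Nos1, Clcn1 and Cacna1s) and Cacng1 kept their direction and their call under each alternative run, with limma adjusted p up to 0.0112, 0.00274, 0.00430, 0.0294 and 0.0378. The count of higher members was 1 in each of these except after scaling to the fibre markers, where it was 2 because Cacnb1 passed. Genes of the 8 lists called higher numbered 43 and lower 6 under that scaling, and 10 and 13 at an adjusted p under 0.01, against 22 and 27. Mbnl1 turned to 0.0048 under the same scaling. Fits without an array or a same-numbered pair gave 9 to 19 higher and 13 to 24 lower list genes, and 1876 to 3174 called probe sets, against 3542; 1630 were called at 0.01 and 5415 after the fibre scaling. Over the same left-out arrays the within-array shift was 0.33 to 0.45 for Cacng1 minus Cacnb1 and -0.37 to -0.24 for Nos1 minus Clcn1.

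Deviations from the group means correlated by 0.045 to 0.097 between same-numbered arrays of the 2 groups, and each array correlated best with its own number. The groups are right and left legs with the same sample numbers, but the labels do not state whether same-numbered legs came from the same mouse. With the sample number as a replicate block 4 members were lower and 1 higher, and 3171 probe sets were called. Of the list genes 21 were higher and 18 lower in that fit, against 22 and 27, and Sgca, Sgcd, Sptbn4 and Mbnl1 no longer passed (limma adjusted p = 0.0524, 0.0502, 0.0569 and 0.0608). The exact sign test of the 4 within-number shifts cannot go below 0.125 and gave that value for each pair. Signal over background is not given in the deposited values.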
